A study of Drosophila melanogaster with 12 samples.

Results

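Intronic RNA was set beside mRNA in body walls of Drosophila melanogaster larvae with and without normal Nxt1, for the genes that had finite values and reads in the authors' pre-mRNA table. That table held 17492 genes, of which 4543 met the rule. Of the remaining genes, 1757 had an infinite value in at least 1 library, 2878 had no defined value and 8314 were at 0 throughout. A mean of at least 10 normalised reads over the 6 libraries was reached by 2470 of the 4543 genes in the pre-mRNA table, and 2448 of them reached it in the mRNA table as well.

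A gene is first copied into pre-mRNA, from which the spliceosome removes the introns, and the joined exons are then bound by export factors and leave the nucleus. Reads from introns therefore come from RNA that has not been spliced, from excised introns that have not been degraded, and from any other gene that lies in the intron. Nxt1 (p15) is the small partner of sbr, the fly NXF1, and the heterodimer carries mRNA through the nuclear pore. In this tissue pre-mRNA and mRNA of the same gene were read from the same libraries, so a ratio of mRNA to pre-mRNA can be formed gene by gene and library by library.

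The mutant group consisted of 3 libraries from Nxt1 trans-heterozygous larvae of strain yw, and the wildtype (WT) group of 3 libraries from strain w1118; the labels do not name the 2 alleles. Both groups were stationary larvae of the last instar, taken after feeding on food with a blue dye, and each library came from a carcass, the body wall left when internal organs are removed. The libraries used are those marked M, read here as the mock arm that received water instead of RNase R, an enzyme that digests linear RNA. They were made from ribosome-depleted total RNA with a kit that keeps the strand. Strain differed together with genotype, so the contribution of strain and that of Nxt1 cannot be told apart in any comparison below, and the labels do not say whether replicates came from separate dissections, so p-values measure the spread between these samples, which may be technical.

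Recovered mRNA reads numbered 19830526, 32840358 and 32868851 in the Nxt1 libraries and 30193498 to 32305635 in the WT libraries. Recovered pre-mRNA reads numbered 664555, 1266425 and 1307520 in Nxt1 and 1237133 to 1455766 in WT, so that pre-mRNA equalled 3.73% ± 0.332 of the mRNA reads in Nxt1 and 4.39% ± 0.266 in WT (SD, n = 3 each). These shares did not overlap, and the exact 2-sided permutation p of 0.1 is the smallest that 3 against 3 allows. The first principal component separated the genotypes and held 47% of the variance of pre-mRNA; the second held 22.7% and had WT replicate 3 at one end. The 10 most abundant genes took 15.96 to 18.2% of mRNA reads in Nxt1 and 9.97 to 12.9% in WT.

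Nxt1 (FBgn0028411) had 157, 171 and 149 normalised mRNA reads in the Nxt1 libraries and 279, 216 and 258 in the WT libraries. The mutants were lower in every library, with a log2 fold of −0.65 ± 0.128 (SE; limma adjusted p = 0.0175), and the exact permutation test gave the smallest possible 2-sided p of 0.1. The call was lost without Nxt1 replicate 1, Nxt1 replicate 3 or WT replicate 1, where the log2 fold was −0.64, −0.60 and −0.57. The gene CG5543 overlaps Nxt1 and had a mean of 425 mRNA reads in the Nxt1 libraries and 393 in WT (log2 fold 0.12 ± 0.115, limma adjusted p = 0.497). Reads of this pair cannot be told apart, because the sources do not say whether counting used the strand. Nxt1 was listed at 0 in the pre-mRNA table. Its partner sbr (FBgn0003321) had 3183, 3360 and 3483 mRNA reads in Nxt1 and 1591, 1715 and 1633 in WT, a log2 fold of 1.02 ± 0.072 (adjusted p = 0.000913), and had infinite pre-mRNA values. Inside sbr lie CG15209, CG15210 and CG32669, whose part in the sbr reads was not tested. The eye colour gene white (w) had 99.6, 118 and 102 mRNA reads in Nxt1 and 0 in each WT library, with 9.34, 6.79 and 4.81 pre-mRNA reads in Nxt1 and 3.91, 0 and 0.927 in WT, too few for the test.

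Pre-mRNA differed between genotypes at 200 of the 2470 genes tested, or 8.1%, with 123 higher in Nxt1 (4.98%) and 77 lower (3.12%). The mRNA table, tested over 10425 genes, gave 2217 calls (21.3%), of which 1246 were higher in Nxt1 (12%) and 971 lower (9.31%). The ratio of mRNA to pre-mRNA, which asks whether both RNAs of a gene moved by the same factor, differed at 49 of 2448 genes (2%); it was higher in Nxt1 at 23 (0.94%) and lower at 26 (1.06%). A call is a limma adjusted p below 0.05 over the whole table, and log2 folds are Nxt1 over WT on the log2(normalised reads + 1) scale, which understates the change of genes with few reads. The 3 Nxt1 libraries did not overlap the 3 WT libraries in pre-mRNA at 29.6% of the 2470 genes, being all higher at 16.5% and all lower at 13.2%. For mRNA the share without overlap was 43.1% (22.9% higher and 20.1% lower), and for the ratio 28.8% (14.4% higher and 14.3% lower). Lack of overlap was therefore common, and genes named below as called were partly chosen for it.

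The number of pre-mRNA calls rested on single libraries. It was 399 without WT replicate 3, 54 without WT replicate 1, 138 without WT replicate 2 and 65 to 73 without an Nxt1 library. Scaling to library totals in place of the authors' factors shifted the median log2 fold of all genes by −0.12 in pre-mRNA, −0.37 in mRNA and −0.25 in the ratio. The split of higher and lower calls then became 79 and 105 for pre-mRNA, 635 and 4830 for mRNA, and 26 and 310 for the ratio. Directions below are therefore relative to the authors' scaling.

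Sorting the 2448 genes by both tests placed 123 genes (5.02%) in the group called in both RNAs, 407 (16.6%) in mRNA alone, 69 (2.82%) in pre-mRNA alone and 1849 (75.5%) in neither. Among the 123, both RNAs were higher in Nxt1 at 77 genes and lower at 44, mRNA was higher and pre-mRNA lower at 2, and no gene had the opposite pair of calls. The 77 had a median log2 fold of 1.17 in pre-mRNA and 1.02 in mRNA, and the 44 had −1.02 in each. The ratio test called 3 of the 77 genes that rose together and none of the 44 that fell together. Without WT replicate 1 the group called in both RNAs held 21 genes, and without WT replicate 3 it held 287.

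**Figure D1:**
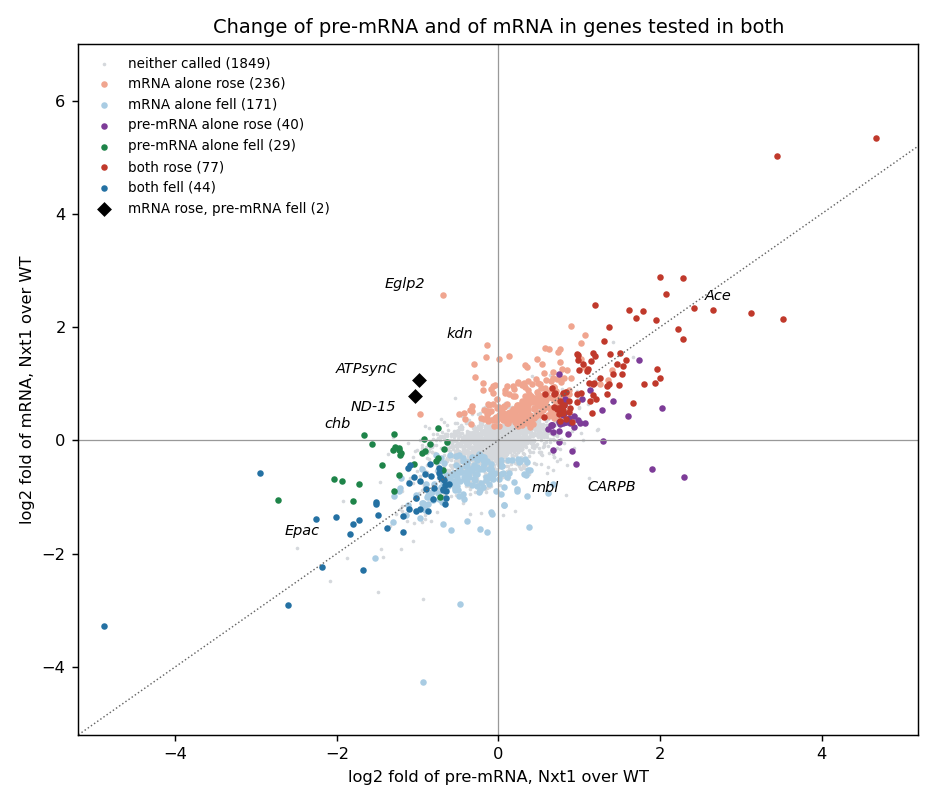
The log2 fold of mRNA (vertical) against the log2 fold of pre-mRNA (horizontal), Nxt1 over WT, for the 2448 genes tested in both tables, coloured by which test called them. The 77 genes higher in both RNAs lie at the upper right and the 44 lower in both at the lower left. The 69 called in pre-mRNA alone lie to the right and left. Their median mRNA log2 fold was 0.31 where pre-mRNA rose and −0.22 where it fell.

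Among genes that rose in both RNAs, Ace (FBgn0000024), the acetylcholinesterase that clears acetylcholine, showed the same fold in each. Its pre-mRNA reads were 127, 115 and 176 in Nxt1 and 24.2, 29.4 and 21.3 in WT (log2 fold 2.42 ± 0.224, adjusted p = 0.000615). In mRNA it had 1112, 1036 and 1132 reads in Nxt1 and 196, 227 and 220 in WT (2.35 ± 0.0902, adjusted p = 9.15e-05). No library of one genotype overlapped the other in either RNA. The ratio was 8.76, 8.98 and 6.43 mRNA reads per pre-mRNA read in Nxt1 and 8.11, 7.74 and 10.3 in WT, which overlap (log2 fold −0.08 ± 0.18, adjusted p = 0.837). The gene veil (FBgn0034225) had 347, 368 and 405 pre-mRNA reads in Nxt1 and 27.3, 67.4 and 106 in WT (log2 fold 2.66 ± 0.403, adjusted p = 0.00818), and its mRNA rose by 2.29 on the log2 scale. It overlaps CG43110, whose own mRNA rose by 2.66, and reads of the pair cannot be told apart because the sources do not say whether counting used the strand.

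NaPi-III (FBgn0260795), a gene of the sodium-dependent phosphate transporter family, had the largest pre-mRNA fold among the genes named in this group. Its pre-mRNA reads were 239, 609 and 166 in Nxt1 and 25.0, 19.8 and 28.7 in WT (log2 fold 3.52 ± 0.416, adjusted p = 0.00243), while its mRNA rose by 2.15. A gene inside NaPi-III, nol, had 174, 573 and 125 reads in Nxt1 and 5.63, 1.65 and 3.40 in WT in the mRNA table. The mRNA-table reads of the genes inside NaPi-III equalled 86.8% of its intronic reads in Nxt1 and 20.3% in WT. The gene mwh (multiple wing hairs, FBgn0264272), a regulator of actin in wing hairs, carries 8 genes inside it. They include the lysozyme genes LysB, LysD, LysE, LysP and LysS, and LysC, which is annotated as a pseudogene. Intronic reads of mwh were 215, 1657 and 865 in Nxt1 and 52.3, 175 and 48.2 in WT, and the LysD reads were 65.8, 1039 and 265 in Nxt1 and 3.22, 2.48 and 1.70 in WT. The nested genes did not all move one way, since LysP fell, with 45.6, 43.5 and 21.3 reads in Nxt1 and 886, 370 and 511.5 in WT (log2 fold −3.95 ± 0.405, adjusted p = 0.00269). LysP in WT and the nested gene CG9119, with 1030, 1093 and 675 reads in Nxt1 and 356, 254 and 569 in WT, had more reads than the WT introns of mwh. The pre-mRNA call of mwh (log2 fold 3.13, adjusted p = 0.035) was lost without Nxt1 replicate 2, Nxt1 replicate 3 or WT replicate 1, with folds of 2.48 to 3.96 over the libraries left out. The part of nol and of the genes inside mwh in these intronic values was not tested.

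Genes that fell in both RNAs included Esp (FBgn0013953), which has no other gene inside it. The pre-mRNA of Esp gave 82.2, 128 and 72.2 reads in Nxt1 and 453, 428 and 184 in WT (log2 fold −1.84 ± 0.353, adjusted p = 0.02003). The mRNA of Esp gave 365, 790 and 327 reads in Nxt1 and 1981, 1842 and 806 in WT (−1.65 ± 0.455, adjusted p = 0.0462). The genotypes did not overlap, but WT replicate 3 lay far below the other WT libraries in both RNAs, and the ratio stayed between 4.31 and 6.17 in all 6 libraries. CG5065 (FBgn0034145) had 37.3, 52.4 and 35.6 pre-mRNA reads in Nxt1 and 155, 121 and 86.2 in WT (−1.49 ± 0.255, adjusted p = 0.0125), and its mRNA fell by 1.33. The gene out (outsiders, FBgn0259834), a member of the monocarboxylate transporter family, had 31.7, 18.4 and 27.9 pre-mRNA reads in Nxt1 and 96.1, 67.4 and 63.0 in WT (−1.51 ± 0.267, adjusted p = 0.0138), and its mRNA fell by 1.12. Leaving out 1 library gave pre-mRNA folds of −2.26 to −1.61 for Esp and −1.71 to −1.29 for CG5065, both lost without Nxt1 replicate 1, Nxt1 replicate 3 or WT replicate 1. In mRNA, Esp (−2.07 to −1.41) kept its call without Nxt1 replicate 2 or WT replicate 3 and CG5065 (−1.66 to −1.07) without WT replicate 3 alone. For out they ran from −1.67 to −1.29, and the call was lost without WT replicate 1.

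Epac (FBgn0085421), an exchange factor activated by cyclic AMP, fell by 2.02 in pre-mRNA and by 1.36 in mRNA on the log2 scale, with 239, 253 and 184 pre-mRNA reads in Nxt1 and 1025, 551 and 1314 in WT. The cytochrome P450 gene Cyp6a2 lies inside it and had 187, 184 and 140 reads in Nxt1 and 866, 410 and 1127 in WT in the mRNA table. The order of the 3 WT libraries was the same for Epac pre-mRNA and for Cyp6a2. In Nxt1 the order differed, with replicate 2 highest for Epac pre-mRNA and replicate 1 highest for Cyp6a2. The part of Cyp6a2 in the intronic values of Epac was not tested. The mRNA reads of Epac itself were 130, 193 and 145 in Nxt1 and 553, 491 and 226 in WT, with WT replicate 3 lowest instead of highest. That mRNA call was lost without any 1 library other than WT replicate 3, with folds of −1.76 to −1.11.

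The 2 genes called in opposite directions were ATPsynC (FBgn0039830), which encodes the membrane ring subunit of the mitochondrial ATP synthase, and ND-15 (FBgn0031228), a subunit of respiratory complex I. ATPsynC had 8786, 9548 and 10350 pre-mRNA reads in Nxt1 and 18370, 16540 and 22020 in WT (log2 fold −0.98 ± 0.177, adjusted p = 0.0151). ATPsynC mRNA reached 47860, 55750 and 43750 reads in Nxt1 and 23240, 17090 and 32300 in WT (1.06 ± 0.24, adjusted p = 0.0256). Both RNAs separated the genotypes without overlap, in opposite directions, and the log2 fold of the ratio was 2.04 ± 0.182 (adjusted p = 0.00961). Inside ATPsynC lies RNaseP:RNA, the RNA of the enzyme that trims tRNA precursors, with 7842, 10050 and 10770 reads in Nxt1 and 18730, 17030 and 20000 in WT. Over the 6 libraries that gene's reads in the mRNA table equalled 98.6% of the ATPsynC pre-mRNA reads. ND-15 showed a pre-mRNA log2 fold of −1.03 ± 0.225 (adjusted p = 0.0280) and an mRNA log2 fold of 0.78 ± 0.0937 (adjusted p = 0.00431). It holds 12 genes, among them the mitochondrial glutamine synthetase Gs1, which had 6459, 7896 and 10120 reads in Nxt1 and 19100, 20310 and 11660 in WT. Without WT replicate 1 the ATPsynC ratio lost its call, its folds running from 1.91 to 2.18, and its pre-mRNA (−1.08 to −0.87) and mRNA (0.84 to 1.29) calls were lost without any Nxt1 library or WT replicate 1. The ND-15 ratio (1.65 to 2.08) and pre-mRNA (−1.22 to −0.92) calls were lost without any library other than WT replicate 3.

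In the group called in mRNA alone, mRNA was higher in Nxt1 at 236 genes and lower at 171. The 236 had a median log2 fold of 0.61 in mRNA and 0.33 in pre-mRNA, and the 171 had −0.65 and −0.36, so the pre-mRNA medians had the sign of the mRNA. For 22 of the 407 genes, 11 in each direction, the ratio passed its own test; for the remaining 225 that rose and 160 that fell, the difference between the RNAs did not pass. The standard error of pre-mRNA was larger, with a median of 0.227 against 0.128 for mRNA over the genes in neither group, and the median pre-mRNA depth of the 2448 genes was 93.3 reads. With mRNA thinned at random to the depth of each gene's pre-mRNA, 233 of the 2424 genes then tested were called in mRNA. Unthinned mRNA of the 2448 genes, fitted and adjusted over these genes alone, gave 487 calls, and 530 of them were called in the fit over 10425 genes. Of the 407 genes, 140 stayed in mRNA alone under thinning and 266 moved to neither, against 365 and 42 in the unthinned fit over these genes alone.

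Genes whose mRNA rose without a pre-mRNA call included enzymes that break down sugar. kdn (FBgn0261955), citrate synthase, had 10140, 11240 and 7969 mRNA reads in Nxt1 and 3316, 1907 and 4389 in WT (log2 fold 1.68 ± 0.306, adjusted p = 0.0141). Its pre-mRNA reads were 108, 84.3 and 58.7 in Nxt1 and 93.7, 83.3 and 93.6 in WT (−0.15 ± 0.231, adjusted p = 0.753). The mRNA levels separated the genotypes and the pre-mRNA levels overlapped, so mRNA per pre-mRNA read was 93.6, 133 and 136 in Nxt1 and 35.4, 22.9 and 46.9 in WT (ratio log2 fold 1.82 ± 0.29, adjusted p = 0.0345). PyK (FBgn0267385), pyruvate kinase, had 49460, 54980 and 48170 mRNA reads in Nxt1 and 15370, 12070 and 24150 in WT, a log2 fold of 1.62. Its pre-mRNA did not pass, with 278, 361 and 299 reads in Nxt1 and 209, 164 and 264 in WT (0.57 ± 0.199, adjusted p = 0.122), although the genotypes did not overlap there either. The PyK ratio log2 fold was 1.05 ± 0.171 (adjusted p = 0.0345). ND-MLRQ (FBgn0052230), a small subunit of the respiratory chain, had a ratio log2 fold of 1.402 ± 0.193 (adjusted p = 0.0315), with 5251, 5618 and 5389 mRNA reads in Nxt1 and 2369, 2088 and 3165 in WT. None of these 3 genes has another gene inside it or overlapping it. Leaving out 1 library at a time gave ratio folds of 1.55 to 2.06 for kdn and 0.99 to 1.16 for PyK, and each call was lost without any library other than WT replicate 3. The kdn mRNA call (1.34 to 1.94) was lost without Nxt1 replicate 1 or 2. For ND-MLRQ the folds ran from 1.31 to 1.56, and the call held without Nxt1 replicate 2 or WT replicate 3 and was lost without any other library.

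The largest positive ratio fold among named genes belonged to Eglp2 (FBgn0034883), a channel of the aquaporin family. The mRNA of Eglp2 gave 587, 557 and 604 reads in Nxt1 and 126, 59.5 and 123 in WT (log2 fold 2.57 ± 0.289, adjusted p = 0.00345), and the ratio log2 fold was 3.26 ± 0.52 (adjusted p = 0.0345). Its pre-mRNA reads, 3243, 3965 and 2541 in Nxt1 and 7055, 6497 and 2994 in WT, exceeded its mRNA reads in every library. The related gene Eglp4 lies inside it and had 2761, 3941 and 2328 reads in Nxt1 and 5017, 4472 and 2364 in WT. The part of Eglp4 in the pre-mRNA values of Eglp2, and so in the ratio, was not tested. The ratio call was lost without any library other than WT replicate 3, with folds of 2.74 to 3.82.

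Among genes whose mRNA fell without a pre-mRNA call, CG2765 (FBgn0035087) had the pre-mRNA fold closest to 0 of the genes named. Its pre-mRNA reads were 95.2, 109 and 99.1 in Nxt1 and 107, 81.7 and 110 in WT (log2 fold 0.03 ± 0.177, adjusted p = 0.938). Its mRNA reads were 1656, 1879 and 1651 in Nxt1 and 4023, 2814 and 3257 in WT (−0.95 ± 0.14, adjusted p = 0.00767). The mRNA per pre-mRNA read was therefore 17.4, 17.3 and 16.7 in Nxt1 and 37.6, 34.4 and 29.5 in WT, without overlap (ratio log2 fold −0.98 ± 0.138, adjusted p = 0.0345). Syt7 (FBgn0039900), a synaptotagmin that acts as a calcium sensor in membrane fusion, had 23.6, 24.9 and 26.3 mRNA reads in Nxt1 and 69.2, 76.0 and 82.6 in WT, with a ratio log2 fold of −1.34 ± 0.165 (adjusted p = 0.0315). CG42329 (FBgn0259229) had the largest mRNA fold of those named here, with 37.1, 30.0 and 24.3 mRNA reads in Nxt1 and 286, 127 and 332 in WT (log2 fold −2.89, adjusted p = 0.0053) and a ratio log2 fold of −2.41. These 3 genes have no other gene inside them, whereas CG34355 (FBgn0085384, ratio log2 fold −1.48) contains the translation initiation factor gene eIF4G2, whose mRNA-table reads of 3195 to 3279 in Nxt1 and 2472 to 3129 in WT were far above the 80.5 to 118 pre-mRNA reads of CG34355 in Nxt1 and 94.4 to 116 in WT. The ratio calls of CG2765 (−1.07 to −0.90) and Syt7 (−1.49 to −1.21) were lost without any 1 library other than WT replicate 3, and that of CG42329 (−2.93 to −1.93) without any other than WT replicate 2. That of CG34355 ran from −1.63 to −1.35 and was lost without Nxt1 replicate 1, Nxt1 replicate 3, WT replicate 1 or WT replicate 2.

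The splicing regulator muscleblind (mbl, FBgn0265487), known for control of muscle exons and as a source of an abundant circular RNA, was in the same group. It had 19030, 20690 and 20280 mRNA reads in Nxt1 and 31030, 27510 and 32250 in WT (log2 fold −0.60 ± 0.104, adjusted p = 0.0126). In pre-mRNA mbl had 3308, 3222 and 2573 reads in Nxt1 and 2495, 2256 and 2529 in WT (0.32 ± 0.153, adjusted p = 0.251). Neither RNA overlapped between genotypes, and the mRNA per pre-mRNA read was 5.75, 6.42 and 7.88 in Nxt1 and 12.4, 12.2 and 12.8 in WT (ratio log2 fold −0.91 ± 0.144, adjusted p = 0.0345). The 8 genes inside mbl had mRNA-table reads equal to 1.78% of its pre-mRNA reads. The ratio fold ran from −1.04 to −0.81 with 1 library left out, and the call was lost without any one of the 6; the mRNA call (−0.66 to −0.55) was lost without any Nxt1 library or WT replicate 1. For tn (thin, FBgn0265356), a ubiquitin ligase of the sarcomere, the ratio was 17.7, 17.3 and 16.9 in Nxt1 and 22.3, 22.0 and 24.3 in WT. That difference, −0.40 ± 0.118 on the log2 scale, did not pass (adjusted p = 0.114), although the genotypes did not overlap.

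In the group called in pre-mRNA alone, pre-mRNA was higher in Nxt1 at 40 genes and lower at 29. The 40 had a median log2 fold of 0.85 in pre-mRNA and 0.31 in mRNA, and the 29 had −1.22 and −0.22. The ratio passed its own test at 7 of the 40 and at 5 of the 29. Without Nxt1 replicate 1 or WT replicate 1 the whole group held 26 genes, and without WT replicate 3 it held 102.

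CARPB (FBgn0052698), which encodes a carbonic anhydrase-related protein, had the lowest adjusted p of the 49 ratio calls. Intronic reads of CARPB were 588, 487 and 548 in Nxt1 and 151, 154 and 127 in WT (log2 fold 1.90 ± 0.15, adjusted p = 0.000329). Its mRNA reads were 130, 97.3 and 127 in Nxt1 and 192, 189 and 127 in WT (−0.51 ± 0.208, adjusted p = 0.132). Intronic reads separated the genotypes widely, while WT replicate 3 lay within the Nxt1 range in mRNA. The mRNA per pre-mRNA read was 0.221, 0.200 and 0.231 in Nxt1 and 1.28, 1.23 and 0.999 in WT (ratio log2 fold −2.41 ± 0.147, adjusted p = 0.00137). No annotated gene lies inside or overlaps CARPB. By the lengths behind the deposited values, which were out of order and had to be reassigned, 64020 bases of intron fall to CARPB. Its ratio fold stayed between −2.52 and −2.34 with any 1 library left out, and CARPB was the sole named gene of 19 whose ratio call held in all 6 of those fits.

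Other genes with a pre-mRNA rise and no mRNA call encode regulators and receptors. crol (crooked legs, FBgn0020309), a zinc finger transcription factor of the ecdysone response, had 857, 686 and 765 pre-mRNA reads in Nxt1 and 399, 439 and 362 in WT (log2 fold 0.94 ± 0.148, adjusted p = 0.00864). crol mRNA gave 8895, 8209 and 8459 reads in Nxt1 and 7616, 7601 and 6645 in WT (0.23 ± 0.0885, adjusted p = 0.117). Both RNAs were above WT in every Nxt1 library, pre-mRNA by more (ratio log2 fold −0.71 ± 0.121, adjusted p = 0.0393). Nlg1 (FBgn0051146), neuroligin 1 of the neuromuscular junction, had 711, 611 and 961 pre-mRNA reads in Nxt1 and 360, 329 and 476 in WT (0.96 ± 0.208, adjusted p = 0.0279). Its mRNA reads were 827, 1182 and 1097 in Nxt1 and 1252, 1280 and 1603 in WT (−0.42 ± 0.164, adjusted p = 0.118), so the RNAs lay on opposite sides of WT in every library (ratio log2 fold −1.38 ± 0.217, adjusted p = 0.0345). CCAP-R (FBgn0039396), the receptor of crustacean cardioactive peptide, had 108, 128 and 170 pre-mRNA reads in Nxt1 and 51.5, 57.1 and 53.8 in WT (1.28 ± 0.2, adjusted p = 0.00857), with a ratio log2 fold of −0.75. The ratio calls of crol (−0.77 to −0.66) and CCAP-R (−0.85 to −0.67) were lost without any one of the 6 libraries, and that of Nlg1 (−1.63 to −1.25) without any but Nxt1 replicate 2. The pre-mRNA call of Nlg1 (0.78 to 1.12) was lost without any library but WT replicate 3, while those of crol and CCAP-R held without any one. CG3277, chosen after its values were seen, had a larger ratio fold (−2.96 ± 0.396, adjusted p = 0.0315), at a mean of 77.2 pre-mRNA and 23.8 mRNA reads and with another gene inside it.

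**Figure D2:**
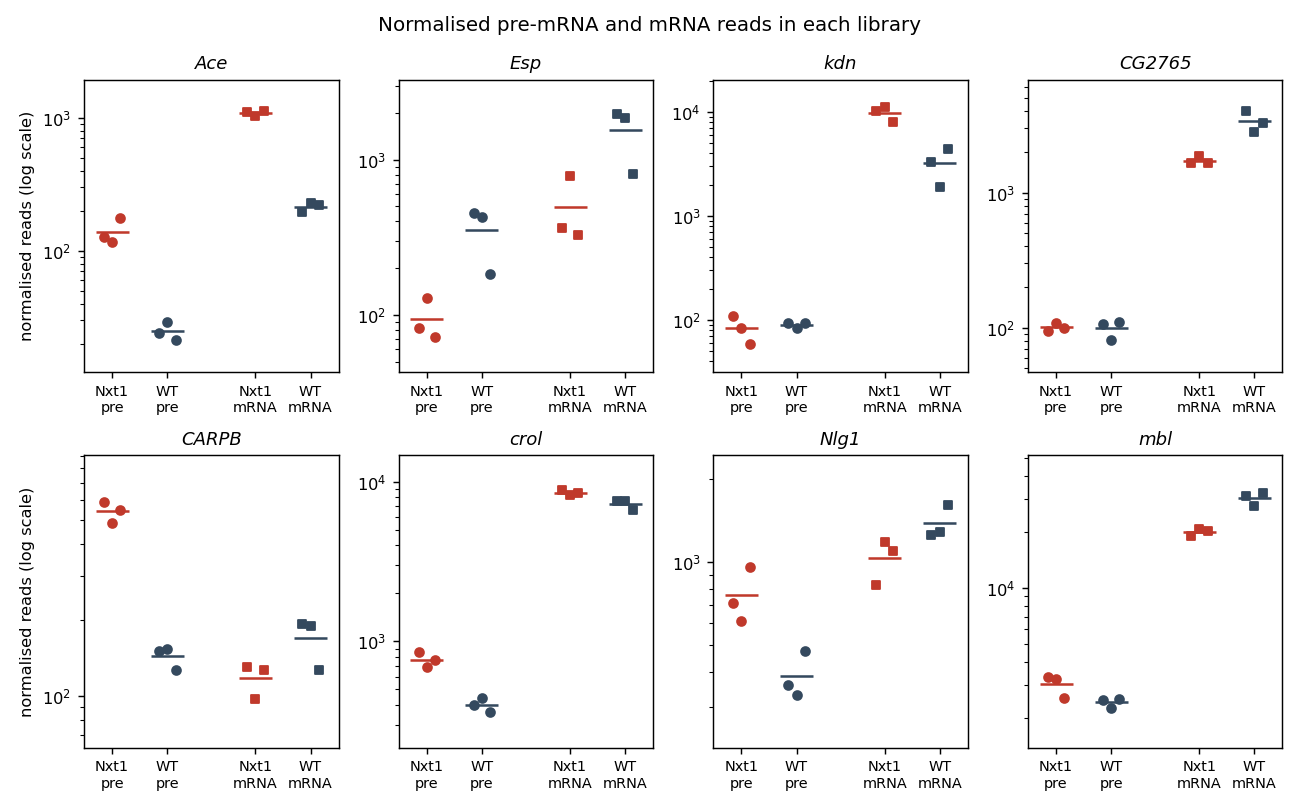
Normalised reads (log axis) of pre-mRNA and mRNA in each of the 3 Nxt1 libraries and the 3 WT libraries for 8 genes; each point is 1 library and each line the group mean. Ace and Esp moved in both RNAs, kdn and CG2765 in mRNA with overlapping pre-mRNA, and CARPB and crol in pre-mRNA.

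The 5 genes whose pre-mRNA fell alone and whose ratio was called each overlapped another gene, as did 1317 of all 2448 genes (53.8%) and 62.1% of the 29 whose pre-mRNA fell alone. chb (FBgn0021760), a microtubule plus-end protein of the CLASP family, had 569, 603 and 360 pre-mRNA reads in Nxt1 and 2514, 1352 and 1168 in WT (log2 fold −1.67 ± 0.302, adjusted p = 0.0153). chb mRNA was level, at 4982, 4883 and 4688 reads in Nxt1 and 4692, 4614 and 4352 in WT (0.09 ± 0.0713, adjusted p = 0.391). The asparagine synthetase gene AsnS, inside chb, had 461, 584 and 312 reads in Nxt1 and 2477, 1306 and 986 in WT, the same order of libraries as the intronic reads of chb. The part of AsnS in those intronic reads was not tested. sick (FBgn0263873) had 1344, 1277 and 1330 pre-mRNA reads in Nxt1 and 3453, 3935 and 2153 in WT (−1.23 ± 0.217, adjusted p = 0.0138). One of the 13 genes inside sick, the long non-coding RNA gene lncRNA:CR43828, had 299, 387 and 309 reads in Nxt1 and 2566, 3064 and 1208 in WT. CG10576 (FBgn0035630) had 120, 148 and 134 pre-mRNA reads in Nxt1 and 284, 268 and 400 in WT (−1.22 ± 0.188, adjusted p = 0.00857). It holds 5 snoRNA genes, guides of ribosomal RNA modification; snoRNA:Psi28S-1837b had 42.2, 65.2 and 57.7 reads in Nxt1 and 137, 152 and 192 in WT, and snoRNA:Psi28S-1837a had 43.9, 72.5 and 76.9 in Nxt1 and 168, 159 and 212 in WT. Cyt-b5 (FBgn0264294), cytochrome b5, had 56.0, 63.0 and 68.3 pre-mRNA reads in Nxt1 and 127, 137 and 173 in WT (−1.20 ± 0.183, adjusted p = 0.00818); it overlaps Gpo2, which had 94.5, 138 and 107 reads in Nxt1 and 163, 135 and 164 in WT, overlapping between genotypes. CG12535, also of these 5, had a pre-mRNA log2 fold of −2.73 at a mean mRNA depth of 12.1 reads. The ratio calls of chb (1.45 to 1.95), CG10576 (0.85 to 1.04) and Cyt-b5 (0.87 to 1.09) were lost without any one library and that of sick (0.96 to 1.22) without 5 of the 6. The pre-mRNA call of chb was lost without Nxt1 replicate 1 or 3 (folds −1.89 to −1.33) and that of sick without any Nxt1 library or WT replicate 1 (−1.48 to −1.05).

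**Figure D3:**
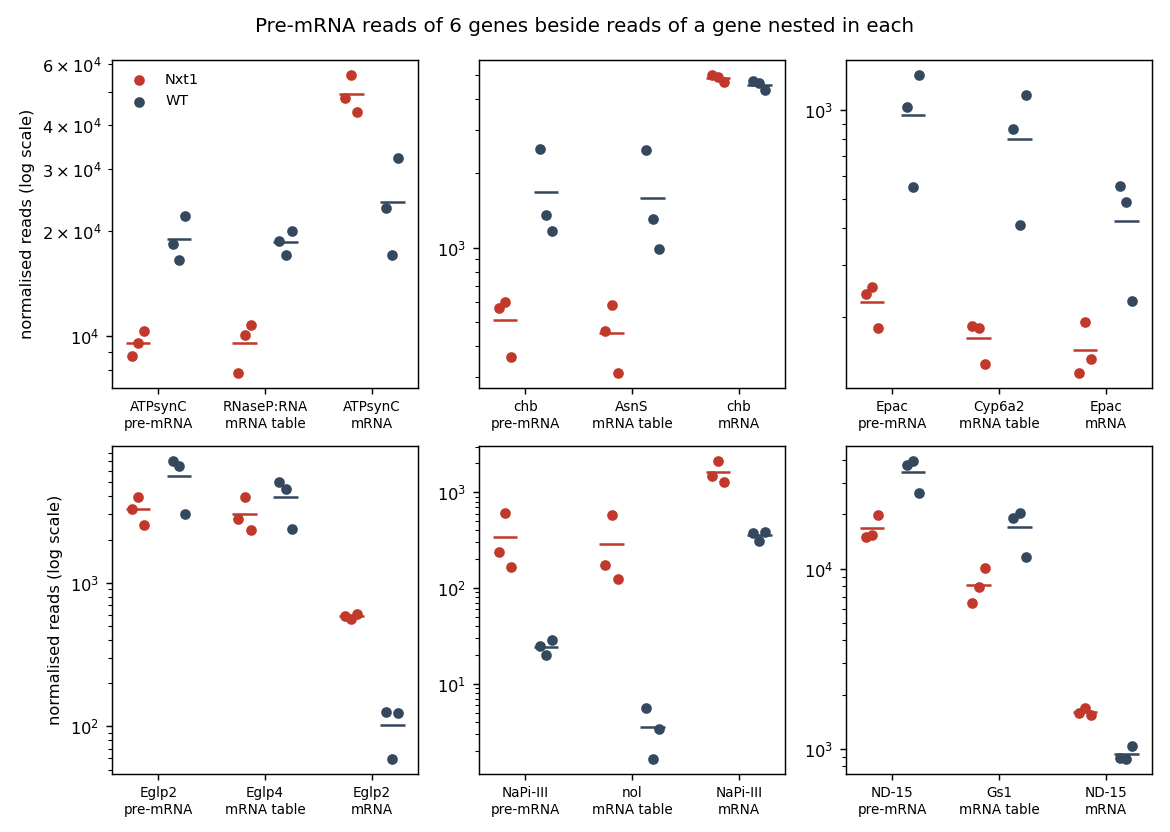
Normalised reads (log axis) per library, Nxt1 left and WT right, for the pre-mRNA of 6 genes and for a gene inside each (ATPsynC with RNaseP:RNA, chb with AsnS, Epac with Cyp6a2, Eglp2 with Eglp4, NaPi-III with nol, ND-15 with Gs1). Host and nested gene lie at similar heights for chb (360 to 603 in Nxt1) and AsnS (312 to 584 in Nxt1), whereas ND-15 lies above Gs1 in every library and NaPi-III (19.8 to 28.7 in WT) far above nol (1.65 to 5.63 in WT) in WT.

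Across all genes tested in both tables, another gene lies inside 783 of 2448 (32%). Among the 49 genes with a ratio call the number was 27 (55.1%), and nested genes had at least 50% as many reads as the host's pre-mRNA in 14 of the 49 (28.6%), against 335 of 2448 (13.7%). The 49 also had more pre-mRNA reads, with a median of 172 against 93.3. These shares are a description, since depth, intron length and nested genes go together. Without the genes so covered, 26 ratio calls were made, and without any gene that overlaps another, 14.

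The choice of genes did not use intron length directly, but it required intronic reads, whose number went together with intron length (below). The 2153 genes given an intron length were cut into 5 equal bins (median 1075 bases in the shortest bin and 38430 in the longest). These lengths are inferred: those behind the deposited values were out of order and were reassigned in the order of sorted gene IDs. Gene span minus exonic length was used where none was implied. The reassigned lengths equalled gene span minus exonic length at 2940 of 4490 genes compared, so some genes may be in a wrong bin. The median log2 fold of the ratio was 0.12, 0.07, 0.02, −0.06 and −0.14 from short to long. The mRNA medians were 0.06, 0.06, 0.01, −0.05 and −0.07 and the pre-mRNA medians −0.03, 0.00, −0.01, 0.01 and 0.05. The change of mRNA per intronic read from WT to Nxt1 thus went from slightly upward at short introns to slightly downward at long introns, by small steps. Within each library, the ratio of the longest bin minus that of the shortest, as deviations from the gene means, was −0.16, −0.11 and −0.03 in Nxt1 and 0.13, 0.09 and 0.21 in WT. The genotypes did not overlap (difference −0.242, exact 2-sided permutation p = 0.1, the smallest possible). For mRNA the same contrast was −0.05, −0.06 and −0.06 in Nxt1 and 0.13, 0.12 and −0.002 in WT, also without overlap. For pre-mRNA it was 0.09, 0.03 and −0.08 in Nxt1 and 0.02, 0.02 and −0.20 in WT, which overlap.

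Depth and intron length went together: the median was 451 pre-mRNA reads in the longest bin and 23.2 in the shortest, and pre-mRNA was called at 10.7% and 4.41% of their genes. In genes with at least the median depth, 214 a bin, the ratio medians were 0.03, 0.01, −0.06, −0.11 and −0.11. The contrast between the longest and shortest bin, −0.25 over all genes, was −0.16 among genes with at least 50 reads and −0.18 without Nxt1 replicate 1.

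**Figure D4:**
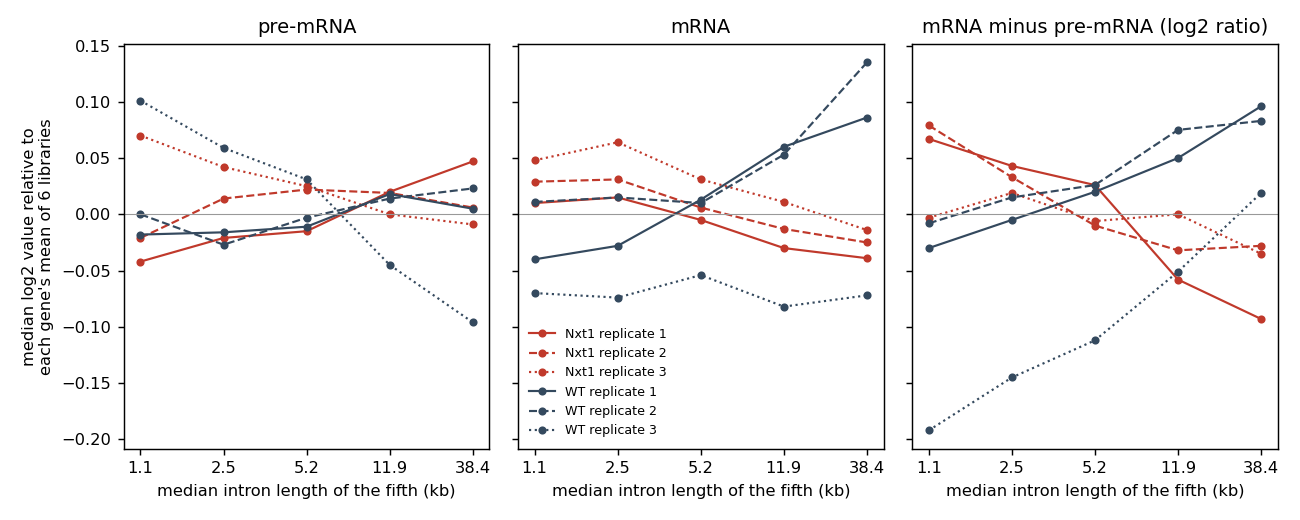
Median log2 deviation from the gene mean in each library, by bin of intron length from short to long, for pre-mRNA, mRNA and their ratio; each line is 1 library, Nxt1 and WT in different colours. In the ratio panel the Nxt1 libraries run downward, by −0.16, −0.11 and −0.03 from the shortest to the longest bin, and the WT libraries upward, by 0.13, 0.09 and 0.21.

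Genes named as circular RNA hosts in the deposited circular RNA tables were looked at separately, since the study set pre-mRNA, mRNA and circular RNA side by side and circular RNAs are spliced from the same pre-mRNA. Of 342 hosts tested in both tables, pre-mRNA rose at 23 and fell at 9 (9.36% called). Among other genes of similar pre-mRNA depth 11.7% of 768 were called. The ratio was called higher at 1 host and lower at 3, and at 12 and 11 of the 768 others. Over all genes tested in both tables the shares were 0.94% and 1.06%. The median log2 fold of the ratio was −0.10 in hosts and −0.04 in the others of similar depth. Hosts had longer introns, with a median of 17185 bases against 9984 in these others, and the part of intron length was not tested.

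Sarcomere genes encode the contractile apparatus of muscle, and the list used here also held some other muscle genes. Of 19 tested in pre-mRNA, 6 rose and none fell, where 4.98% of all genes rose and 3.12% fell, with a median log2 fold of 0.67 against 0.01 over all genes. The 6 include kon (0.65) and the potassium channel gene KCNQ (0.69), which are not part of the contractile apparatus. KCNQ is counted again among the channels below, and its pre-mRNA call was lost in 14 of 21 alternative runs. In mRNA, 13 of 35 rose and 1 fell, where 12% of all genes rose and 9.31% fell. Limma called the ratio at none of 19 (3 higher and 4 lower at an unadjusted p below 0.05; edgeR and DESeq2 each called 1 higher and 1 lower). The muscle LIM protein gene Mlp84B (FBgn0014863) had 693, 1024 and 724 pre-mRNA reads in Nxt1 and 247, 241 and 347 in WT (1.54 ± 0.206, adjusted p = 0.00425), and its mRNA rose by 1.31. Troponin C gene TpnC73F had 213, 211 and 326 pre-mRNA reads in Nxt1 and 85.9, 113 and 109 in WT (1.26 ± 0.211, adjusted p = 0.0112), and its mRNA rose by 1.09. The genotypes did not overlap for either gene. The myofilament gene Mf (myofilin) rose by 1.02 in pre-mRNA and 0.84 in mRNA, and CAP, a scaffold gene of the vinexin family, by 0.88 and 0.57. Leaving out 1 library ended the pre-mRNA call of TpnC73F without WT replicate 1 (folds 1.05 to 1.36), that of CAP without 4 libraries (0.74 to 1.01; kept without Nxt1 replicate 3 or WT replicate 3) and that of Mf without any but WT replicate 3 (0.79 to 1.29). The mRNA call of Mf (0.67 to 1.05) was likewise kept without WT replicate 3 alone, and that of CAP (0.49 to 0.65) was lost without Nxt1 replicate 1 or 2. The 9 muscle markers summed to 1379000 to 1755000 mRNA reads in Nxt1 and 508000 to 1080000 in WT, with 3 of 9 called higher and none at 0; their part in the sarcomere result was not tested. In whole carcasses, more cells of a type and more RNA per cell cannot be told apart.

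Among 9 glycolysis genes tested in pre-mRNA, 1 rose and none fell (5 rose at an unadjusted p below 0.05), where 4.98% of all genes rose, with a median log2 fold of 0.57. By library, the median deviation of their pre-mRNA was 0.55, 0.64 and −0.098 in Nxt1 and −0.28, −0.66 and 0.008 in WT, which overlap. Over the 17 glycolysis genes tested in mRNA, 11 rose and none fell, where 12% of all genes rose, with a median of 1.62; of the 9 tested in both, 1 was called in both RNAs and 5 in mRNA alone. The ratio was called at 1 of the 9, PyK, and its median was 0.77. The aldolase gene Ald1 was called in both RNAs, with 850, 1059 and 600 pre-mRNA reads in Nxt1 and 360, 209 and 467 in WT (1.31 ± 0.304, adjusted p = 0.0361) and an mRNA log2 fold of 1.76. For oxidative phosphorylation, 32 of 46 genes rose in mRNA and none fell (12% and 9.31% over all genes), but 5 of the 46 had enough intronic reads, and there the single call was the fall of ATPsynC described above. Glyp, glycogen phosphorylase, which releases glucose units from glycogen, rose by 1.37 in pre-mRNA (adjusted p = 0.0107) and by 2.01 in mRNA. Among 17 genes of sugar and fat storage, pre-mRNA rose at 3 (4.98% of all genes), namely Glyp, the trehalase gene Treh (0.81) and the fatty acid synthase gene FASN1 (1.01), and fell at none. FASN1 mRNA did not pass (0.31 ± 0.142, adjusted p = 0.172). The pre-mRNA calls of Ald1 (0.99 to 1.56) and FASN1 (0.76 to 1.30) were lost without any library but WT replicate 3, that of Treh (0.67 to 0.88) without any Nxt1 library or WT replicate 1, and that of Glyp (1.12 to 1.52) without Nxt1 replicate 1 or 2. In mRNA, the call of Ald1 (1.44 to 2.06) was lost without Nxt1 replicate 1 or 2 and that of Treh (0.52 to 0.76) without any Nxt1 library or WT replicate 1.

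**Figure D5:**
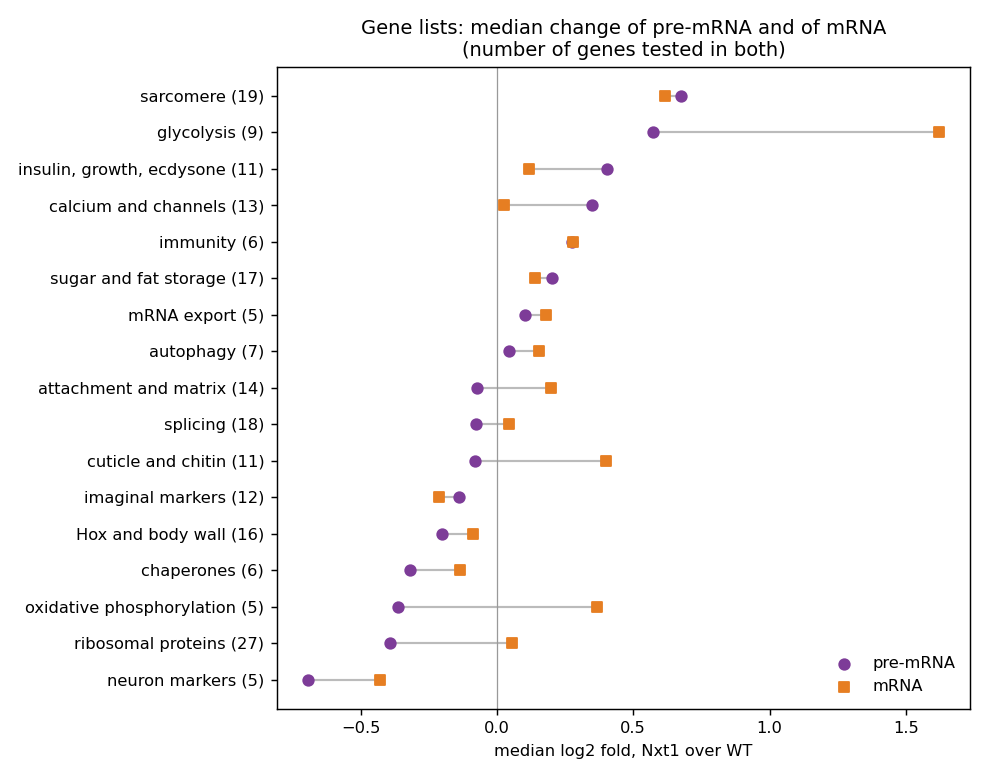
Median log2 fold, Nxt1 over WT, of pre-mRNA and mRNA for the genes of each list that were tested in both tables. Sarcomere genes lie at 0.67 in pre-mRNA and 0.62 in mRNA, glycolysis at 0.57 and 1.62, and ribosomal proteins at −0.39 and 0.06.

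Of 27 ribosomal protein genes tested in pre-mRNA, 1, RpL7A, was called lower, a share near the 3.12% of all genes. The 27 all had a pre-mRNA log2 fold below 0, from −1.29 to −0.03 with a median of −0.39, while 1222 of all 2470 tested genes were below 0. At an unadjusted p below 0.05, 5 fell. In mRNA, limma called none of 72, with 3 higher and 1 lower at an unadjusted p below 0.05; edgeR called none and DESeq2 called 2 higher. The median mRNA log2 fold was 0.03 over the 72 and 0.06 over the 27 tested in both tables, and that of the ratio 0.38. By library, the median deviation of their pre-mRNA was −0.15, −0.24 and −0.30 in Nxt1 and 0.18, −0.04 and 0.40 in WT, without overlap. The 16 genes with a snoRNA gene inside had a median pre-mRNA log2 fold of −0.34 and the 11 without had −0.42; the part of snoRNA reads in these values was not tested. RpL7A had 24.3, 34.9 and 50.03 pre-mRNA reads in Nxt1 and 91.4, 63.5 and 112 in WT (−1.29 ± 0.304, adjusted p = 0.0377), and its mRNA log2 fold was 0.11. The gene snoRNA:Or-CD10 inside RpL7A had 15.2, 10.4 and 25.3 reads in Nxt1 and 53.1, 30.6 and 44.3 in WT in the mRNA table (−1.33 ± 0.384, adjusted p = 0.0526), equal to 47.5% of the RpL7A pre-mRNA reads. The RpL7A call was lost without Nxt1 replicate 1, Nxt1 replicate 2 or WT replicate 1, with folds of −1.54 to −1.03. The list was singled out after its values were seen, and its median depth was 34.03 pre-mRNA reads. Among the snoRNA genes, in the mRNA table, 2 of the 164 tested rose and 35 fell (21.3%, against 9.31% of all genes in that table), with a median log2 fold of −0.45. Of 19 nucleolus genes, which serve ribosome assembly, 15 fell in mRNA (9.31% of all genes), and limma, edgeR and DESeq2 called none of the 3 tested in pre-mRNA (0 at an unadjusted p below 0.05).

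Pre-mRNA of factors that handle RNA was called at 2 of 18 splicing genes and at none of 5 export genes, where 8.1% of all genes were called. Among 5 mRNA export genes tested in pre-mRNA, limma called none (0 at an unadjusted p below 0.05, and 0 with edgeR or DESeq2), and the ratio was lower at 1, the RNA helicase Dbp80 (−0.64 ± 0.12, adjusted p = 0.0495). Among 18 splicing genes, pre-mRNA of the regulator Rbfox1 rose and that of Hrb98DE, an hnRNP A protein, fell. Rbfox1 had 2379, 2422 and 2962 pre-mRNA reads in Nxt1 and 1524, 1929 and 1629 in WT (0.61 ± 0.158, adjusted p = 0.0496). Hrb98DE had 306, 293 and 284 in Nxt1 and 454, 448 and 589 in WT (−0.74 ± 0.153, adjusted p = 0.0240), and it holds 7 snoRNA genes with reads equal to 83.5% of its pre-mRNA. The genotypes overlapped in neither gene. Both calls were lost without any Nxt1 library or without WT replicate 1, with folds of 0.51 to 0.71 for Rbfox1 and −0.81 to −0.61 for Hrb98DE. Over all alternative runs, the call of Rbfox1 was lost in 12 of 21, edgeR among them, and that of Hrb98DE in 6 of 20.

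Ecdysone and growth genes, which time larval growth and moulting, had 2 of 11 pre-mRNAs higher and none lower, where 4.98% of all genes were higher and 3.12% lower. MsrA, methionine sulfoxide reductase, had 91.5, 74.7 and 54.9 pre-mRNA reads in Nxt1 and 15.6, 10.3 and 19.5 in WT (2.22 ± 0.296, adjusted p = 0.00425), and its mRNA rose by 1.96. Hr38, an orphan nuclear receptor, rose by 1.09 in pre-mRNA and 1.22 in mRNA. The Hr38 pre-mRNA call (0.85 to 1.399) was kept without Nxt1 replicate 3 or WT replicate 3 and lost without any other library, and its mRNA call (0.99 to 1.41) was lost without Nxt1 replicate 2. Cuticle genes had 2 of 11 pre-mRNAs higher and 1 lower, against the same shares of all genes. Ddc (FBgn0000422), the dopa decarboxylase of cuticle tanning, had 289, 265 and 411 pre-mRNA reads in Nxt1 and 64.8, 95.2 and 84.4 in WT (1.96 ± 0.217, adjusted p = 0.0018). Its mRNA reads were 40970, 51350 and 54060 in Nxt1 and 24080, 29210 and 11620 in WT (1.27 ± 0.342, adjusted p = 0.0439). Both separated the genotypes, and the Ddc pre-mRNA call held without any one library, whereas its mRNA call (0.87 to 1.53) was lost without any Nxt1 library or WT replicate 1. Cpr51A, a cuticle protein gene, rose by 1.12 in pre-mRNA and 1.01 in mRNA, and stw (straw), a laccase gene of cuticle tanning, fell by 0.68 in pre-mRNA (adjusted p = 0.0498) with an mRNA log2 fold of −0.53 (adjusted p = 0.0549). The gene CG30197 inside Cpr51A had 3732, 3674 and 3961 reads in Nxt1 and 1687, 2230 and 2461 in WT in the mRNA table. These equalled 2510% of the Cpr51A pre-mRNA reads, and the part of CG30197 in the intronic values of Cpr51A was not tested. The Cpr51A call (0.90 to 1.29) was lost without any library but WT replicate 3 and that of stw (−0.85 to −0.55) without any Nxt1 library or WT replicate 1. The 9 epidermis markers, the cells that make cuticle, summed to 1298000 to 1534000 mRNA reads in Nxt1 and 614000 to 689400 in WT, with 3 of 9 higher and none at 0, and their part was not tested.

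Patterning genes of the body wall had 3 of 16 pre-mRNAs lower and none higher, where 3.12% of all genes were lower and 4.98% higher. Antp, a Hox gene, had 577, 497 and 604 pre-mRNA reads in Nxt1 and 994, 800 and 950 in WT (−0.71 ± 0.149, adjusted p = 0.0255), and its mRNA fell by 0.66. Scr, the neighbouring Hox gene, fell by 0.81 in pre-mRNA and 1.04 in mRNA. slou (slouch), a homeobox gene of muscle identity, fell by 1.52 in pre-mRNA and 1.10 in mRNA at 7.47, 6.79 and 12.5 pre-mRNA reads in Nxt1 and 30.5, 24.6 and 25.0 in WT. These 3, named because they were called, did not overlap between genotypes in pre-mRNA; 13.2% of all genes were lower in Nxt1 without overlap. Their pre-mRNA calls were lost without any Nxt1 library or WT replicate 1 for Antp (−0.80 to −0.62), without any library but WT replicate 3 for Scr (−1.01 to −0.68) and without Nxt1 replicate 1 or 2 or WT replicate 1 or 2 for slou (−1.76 to −1.37). In mRNA, slou (−1.39 to −0.89) lost its call without the same 4 libraries and Scr (−1.24 to −0.93) without Nxt1 replicate 1 or 2 or WT replicate 1. Of 12 imaginal disc markers limma, edgeR and DESeq2 called none in pre-mRNA (1 rose at an unadjusted p below 0.05), and the list summed to 9549 to 10670 mRNA reads in Nxt1 and 10590 to 14590 in WT; this sum was not tested.

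Genes of calcium handling and ion channels, among them SERCA, RyR and CalpA, had 2 of 13 pre-mRNAs higher and 1 lower. Of all genes, 4.98% were higher and 3.12% lower. The potassium channel gene KCNQ rose by 0.69 in pre-mRNA and 0.81 in mRNA. The gene mlt inside KCNQ had 937, 1066 and 1029 reads in Nxt1 and 838, 767 and 869 in WT in the mRNA table. Reads of the genes inside KCNQ equalled 41.3% of its pre-mRNA reads, and their part in its intronic values was not tested. slo, the calcium-activated potassium channel, had 586, 538 and 675 pre-mRNA reads in Nxt1 and 288, 445 and 349 in WT (0.75 ± 0.185, adjusted p = 0.0441), with an mRNA log2 fold of 0.17 ± 0.224 (adjusted p = 0.628). Ca-alpha1T, a T-type calcium channel, had 28.0, 20.4 and 17.3 pre-mRNA reads in Nxt1 and 54.7, 53.2 and 42.6 in WT, a log2 fold of −1.18, and its mRNA fell by 1.34. No pair of genotypes overlapped for these pre-mRNAs. The calls were lost without any library but WT replicate 3 for KCNQ (0.54 to 0.78; in mRNA 0.63 to 1.00, kept without WT replicate 2 alone), without any Nxt1 library or WT replicate 1 for slo (0.60 to 0.91), and without Nxt1 replicate 2 or 3 or WT replicate 1 or 2 for Ca-alpha1T (−1.36 to −1.03).

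In the remaining lists few genes had enough intronic reads. Of 3 detoxification genes tested in pre-mRNA 1 rose and none fell, where 4.98% of all genes rose and 3.12% fell. This gene, the glutathione transferase gene GstD1, rose by 0.97 in pre-mRNA and 1.53 in mRNA. Its pre-mRNA call (0.77 to 1.21) was lost without any library but WT replicate 3. Of 5 neuron markers tested in pre-mRNA 1 fell and none rose, against the same shares of all genes. This gene, ChAT, which makes acetylcholine, fell by 0.72 (limma adjusted p = 0.0431). The vesicular transporter gene VAChT inside it had 96.2, 107 and 94.1 reads in Nxt1 and 168, 144 and 176 in WT. The ChAT call (−0.84 to −0.61) was lost without any Nxt1 library or WT replicate 1. In mRNA 3 of 11 neuron markers fell and none rose, where 9.31% of all genes fell. The neuron markers summed to 2077 to 2528 mRNA reads in Nxt1 and 2870 to 3019 in WT, and this sum was not tested. Limma called none of 14 genes of muscle attachment and matrix in pre-mRNA (3 higher and 4 lower at an unadjusted p below 0.05; edgeR called 1 lower and DESeq2 none). Of 6 immunity genes limma, edgeR and DESeq2 called none (1 higher at an unadjusted p below 0.05). Markers of fat body, salivary gland and midgut had no gene with enough intronic reads. Their mRNA sums were 226500 to 326200 in Nxt1 and 124900 to 147400 in WT for fat body, 9138 to 20620 in Nxt1 and 4209 to 5971 in WT for salivary gland, and 687 to 4813 in Nxt1 and 188 to 1926 in WT for midgut. In mRNA, 5 of 11 fat body markers rose and 2 fell, 7 of 12 salivary gland markers and 2 of 10 midgut markers rose and none fell, and 4 of 11 hemocyte markers rose and 1 fell, where 12% of all genes rose and 9.31% fell. The hemocyte markers summed to 35400 to 49660 in Nxt1 and 21740 to 28150 in WT; how far such cells contribute to the intronic values above was not tested.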

How the data were processed

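Total RNA of larval carcasses was sequenced in paired reads of 75 bases, per the labels' protocols. The submitters' processing notes name STAR 2.5.3a, featureCounts 1.6.2, Subread, Trimmomatic 0.36 and DESeq2 with no roles. No coordinates are printed, the build being not given in the sources used here. The deposited tables hold FPKM for mRNA and for pre-mRNA, each scaled by the authors with a factor per library. The sources do not define the part counted as pre-mRNA; the lengths implied by the FPKM steps equal gene span minus exonic length at 2940 of 4490 genes compared. Lengths appeared out of order between genes, so levels are not compared between genes. For intron length they were reassigned in the order of sorted gene IDs, and the 2940 matches are counted after that step. Deposited counts of circular RNA reads, given by the authors for the RNase R libraries of each genotype, were used to name host genes and for nothing else.

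FPKM values of a gene are whole multiples of what 1 read is worth. Whole reads, within a tolerance of 0.01, were recovered for all 15293 mRNA genes and 4543 pre-mRNA genes with reads; 294 and 88 genes needed a shared factor. Normalised reads are these reads over the authors' library factor. Genes with a mean of at least 10 were fitted with limma 3.58.1 (R 4.3.3, trended variance) on log2(normalised reads + 1), over whole tables, with Benjamini-Hochberg adjustment at 0.05. The ratio test used the difference of both log2 values within a library. Read recovery and the limma tests of pre-mRNA, mRNA and the ratio were tested on simulated data. In those data a log2 fold of 1 was recovered at 88% of changed genes in pre-mRNA and 90% in mRNA, but at 30% in the ratio. A log2 fold of 2 was recovered at 100% in each test. False calls were 11 of 199 in pre-mRNA, 4 of 99 in mRNA and 3 of 68 in the ratio. The changed genes were drawn from those with a mean of at least 50 normalised pre-mRNA reads. All genes had the same dispersion, and mRNA and pre-mRNA reads were drawn independently of each other. These rates therefore need not hold for the real libraries or for genes with fewer reads. edgeR 4.0.16 and DESeq2 1.42.0 on recovered reads served as alternatives, as did other scalings, filters, pseudocounts, the deposited FPKM, thinning of mRNA, removal of overlapping genes, a replicate block and leaving out each library. The exact permutation tests over libraries by intron length were added after the values were seen.

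Named genes were up to 4 per group of calls, taken by fold among genes with a mean of at least 50 normalised reads in both tables and no overlap between genotypes, up to 4 called genes per list, and Nxt1, sbr, mbl, tn and w. Members and lists were chosen with earlier results of these data known. Gene names, spans and overlaps come from a RefSeq table of Release 6, in which 17371 of 17492 IDs matched. Recovered reads carry counting error, largest for pre-mRNA (664555 to 1455766 reads per library).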

Additional observations from a re-analysis of the deposited data

How the results depend on the processing

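Pre-mRNA calls were 200; they were 53 on log2(FPKM + 1), 53 with a replicate block, 63 without overlapping genes, and 54 to 399 with 1 library left out. mRNA calls, 2217, became 5465 with library totals, 739 with the replicate block, 233 after thinning to pre-mRNA depth (of 2424 genes; 487 when the genes of both tables were fitted alone without thinning, an alternative chosen after seeing the data), 1143 without overlapping genes and 894 to 3036 with 1 library left out. Ratio calls, 49, became 336 with library totals, 25 with the mRNA factors for both tables, 17 without a filter, 151 with a filter of 50 reads, 80 with a pseudocount of 5, 9 on FPKM + 1, 157 with edgeR, 135 with DESeq2, 5 after thinning, 14 without overlapping genes, 26 without genes covered by a nested gene (chosen after seeing the data), and 1 to 30 with 1 library left out. With the replicate block limma made 0 ratio calls, with 470 genes at an unadjusted p below 0.05. Genes called in both RNAs, 123, became 25 on FPKM + 1, 29 with the replicate block, 45 without overlapping genes and 21 to 287 with 1 library left out. Genes called in mRNA alone, 407, became 1186 with library totals, 700 without a filter, 263 with the filter of 50 reads, 637 on FPKM + 1, 228 with a 1.5-fold minimum, 137 with the replicate block, 145 after thinning, 191 without overlapping genes and 182 to 601 with 1 library left out. Genes called in pre-mRNA alone, 69, became 45 with the mRNA factors, 16 on FPKM + 1, 19 with the replicate block, 104 after thinning, 16 without overlapping genes and 26 to 102 with 1 library left out. The Nxt1 mRNA log2 fold of −0.65 stayed −0.65 with the replicate block but lost its call (adjusted p = 0.0732), and ran from −0.75 to −0.57 with 1 library left out. The intron length contrast of the ratio, −0.25, was −0.16 with the filter of 50 reads and −0.28 to −0.18 with 1 library left out. Same-numbered libraries did not deviate together (correlations −0.016, −0.089 and −0.188 in pre-mRNA and −0.034, −0.089 and −0.173 in mRNA). The highest correlation was that of Nxt1 replicate 3 with WT replicate 2 (0.254 in pre-mRNA and 0.261 in mRNA). Deviations centred within 3 libraries cannot decide whether samples were paired. Of 42 named pre-mRNA calls 8 held in every alternative run, of 38 mRNA calls 21 and of 19 ratio calls 0; none changed sign. Fewer genes were tested without overlapping genes (1137 against 2470 in pre-mRNA), and fewer samples without a library. Counts did not always drop with fewer samples, since pre-mRNA calls rose from 200 to 399 without WT replicate 3. The cause of these changes was not tested. Counting error is largest for pre-mRNA, at a median of 93.3 reads a gene.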
